A study of Zea mays with 4 samples.

Results

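The PIP2 plasma membrane aquaporins of maize were represented by 8 probe sets for 6 genes, out of 17555 maize probe sets on the array. The genes are PIP2-1 (LOC541888), pip2b (LOC542644, also ZmPIP2-2), pip2c (LOC541889, also ZmPIP2-3), PIP2-4 (LOC541890), pip2-5 (LOC542619) and PIP2-6 (LOC541891). A probe set was taken as a member when its single gene symbol, or a synonym of that gene, began with PIP2. These are also the 6 PIP2 genes in the RefSeq table used for names.

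The series measured total RNA of maize lines Cm489 and F98908 on Affymetrix arrays, each line on 2 of the 4 arrays. Plants of both lines were 21 days old with 7 leaves, and had grown on potting compost in cycles of 16 h light and 8 h dark at 50% humidity. The labels name neither a mutation nor a treatment for either line, give the sampled material only as aerial, and do not say whether plants were pooled. F98908 array 2 carries the extract label of F98908 array 1, whereas the Cm489 arrays each have their own, and separate plants are not stated for either pair of arrays, so the spread behind each p-value may be technical. In these bulk samples, fewer cells of a type and less RNA per cell cannot be told apart.

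Aquaporins are membrane channels that let water, and in some families small solutes, cross membranes along a gradient. In plants the plasma membrane intrinsic proteins fall into the PIP1 and PIP2 groups. PIP2 proteins are efficient water channels when made alone in frog oocytes, while maize PIP1 proteins reach the plasma membrane and act there mainly when assembled with PIP2 partners. In leaves and growing zones these channels carry part of the water that moves from cell to cell.

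The tissue was checked on marker genes. The Rubisco gene rbcS was bright on all 4 arrays (log2 11.53 to 12.28). In the mesophyll list mdh6 was at 8.90 to 9.93. C4ppdkZm1 differed between its probe sets, from 1.70 on the dimmest to between 8.88 and 9.76 on the brightest. PDK1, at 7.83 to 8.68, entered that list by its symbol alone and is not read as a C4 gene. The zein gene gz27 was at log2 2.11 or below on 2 of its 3 probe sets and between 4.42 and 5.02 on the other. The kernel genes glb1 (LOC732801) and o2 were dim, at most 2.49 and 2.10. A different gene, GLB1 (LOC541815), entered the kernel list through its symbol. It was at 7.70 and 8.94 in Cm489 and 7.51 and 7.30 in F98908. The leaf marker probe sets for ME1 and pep1 were dim, ME1 at a mean of 2.99 in F98908 and pep1 at 5.44 on Cm489 array 1 and at most 1.91 on the other arrays. The meristem genes KN-1 and lg3 were bright on all 4 arrays, at 10.62 to 11.51 and 7.18 to 8.94. The root gene zrp4 was bright in Cm489 alone (10.78 and 10.99, against 2.48 and 3.14 in F98908), and its part in the PIP2 results was not tested. One array stood apart: the outer cell layer genes ocl1, ocl4 and ocl5 were at 4.12, 3.12 and 4.36 on Cm489 array 2, whereas ocl1 ranged from 7.15 to 8.43 on the other 3 arrays, with ocl4 and ocl5 likewise higher there. Each PIP2 result below is therefore also given without that array where this changes its call.

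The main difference within the family was a lower level of pip2b and of the brighter pip2c probe set in F98908. The dimmer pip2c probe set was not called, and PIP2-1 had lower values on both F98908 arrays but fell short of the threshold. Limma tested 6 of the 8 probe sets, those above log2 4 on at least 2 arrays, and called 2 lower and 0 higher in F98908 at an adjusted p of 0.05. Neither call was kept without this minimum or with the replicate number as a block. Over all 11262 tested probe sets 8.02% were called lower and 7.27% higher, 15.3% in all. At an unadjusted p under 0.05 the PIP2 counts were 3 lower and 1 higher, beside 18.1% and 14.3% of all tested probe sets. The median difference of the 6 was -0.65 on the log2 scale, beside -0.03 over all tested probe sets. On 5 of the 6 the arrays of the lines did not overlap, a pattern that 63.9% of all tested probe sets share, so it says little about the family.

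**Figure D1:**
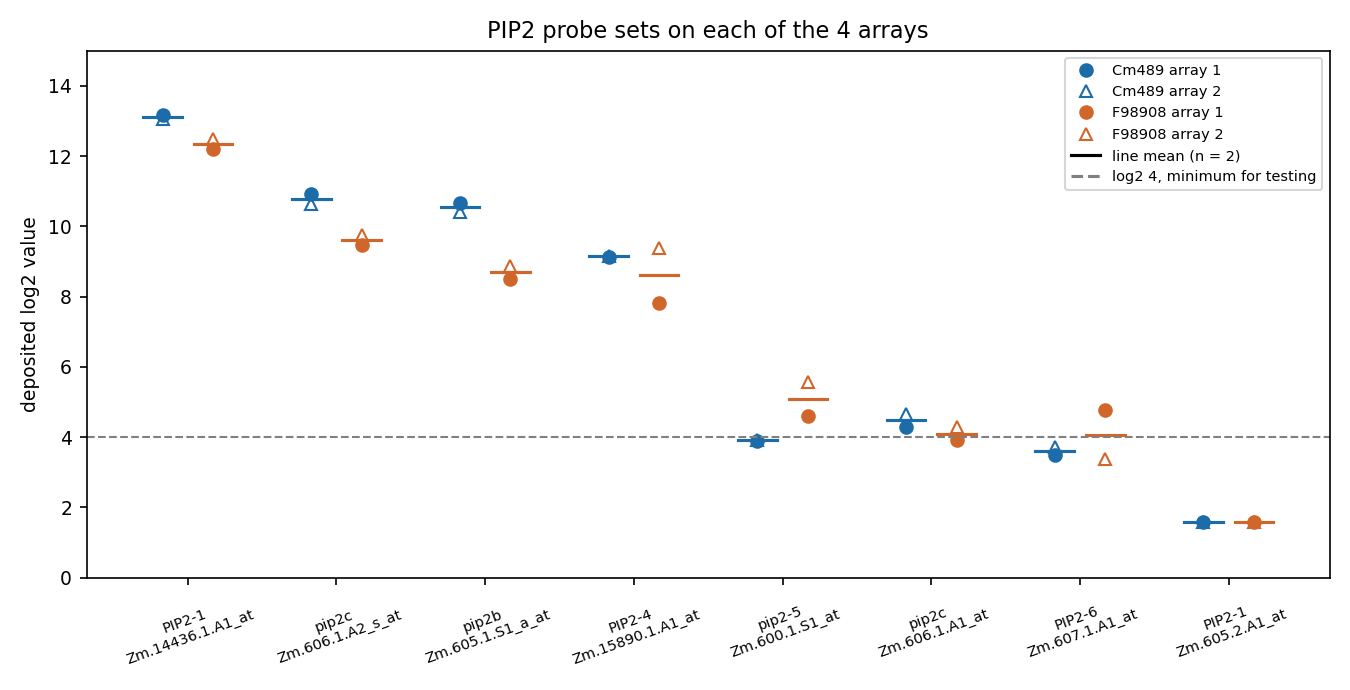
Deposited log2 values of the 8 PIP2 probe sets, with 1 symbol per array and a bar for each line's mean of 2 arrays. The F98908 arrays lie below the Cm489 arrays for pip2b, both probe sets of pip2c and the bright probe set of PIP2-1, the F98908 arrays of PIP2-4 lie on either side of Cm489, and 2 probe sets stay mostly below the log2 4 line used for testing.

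The gene pip2b had the largest difference of the family. Its probe set Zm.605.1.S1_a_at read 10.68 and 10.40 on the Cm489 arrays and 8.51 and 8.88 on the F98908 arrays. Both F98908 values lay 1.52 log2 units or more below the lower Cm489 value, while the arrays of a line differed by 0.27 in Cm489 and 0.37 in F98908. The line means were 10.54 ± 0.19 and 8.69 ± 0.26 (SD, n = 2 arrays per line), which makes pip2b 3.60-fold lower in F98908 (95% interval 2.47 to 5.24; log2 difference -1.85 ± 0.19 SE, limma adjusted p = 0.0136). A decrease at least as large was seen in 353 of the 11262 tested probe sets, 3.13%. The call was lost without any single array, with adjusted p = 0.0595 and 0.0560 without Cm489 array 1 or 2 and 0.0901 and 0.0677 without F98908 array 1 or 2. In these fits the difference ran from -2.03 to -1.66. Taking the F98908 arrays as 1 sample gave adjusted p = 0.0789.

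The gene pip2c was also lower in F98908, on the brighter of its probe sets. Zm.606.1.A2_s_at read 10.91 and 10.65 in Cm489 and 9.48 and 9.74 in F98908. The groups were separated by 0.91, against gaps of 0.26 between the arrays of each line. The means of 10.78 ± 0.18 and 9.61 ± 0.19 (SD, n = 2 arrays per line) correspond to a 2.25-fold lower level in F98908 (95% interval 1.63 to 3.10; log2 difference -1.17 ± 0.16 SE, adjusted p = 0.0263). Without single arrays the difference ran from -1.30 to -1.04 and was not called, with adjusted p = 0.0762 and 0.0672 without Cm489 array 1 or 2 and 0.165 and 0.119 without F98908 array 1 or 2. With the F98908 arrays as 1 sample the adjusted p was 0.142.

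The other probe set of pip2c, Zm.606.1.A1_at, was drawn from the same target sequence but was dim. Its values were 4.29 and 4.66 in Cm489 and 3.92 and 4.28 in F98908, so the lower line sat at the testing minimum. The difference of -0.37 ± 0.21 SE had the same sign and did not pass (adjusted p = 0.314). The suffix _s_at marks a probe set whose probes are shared by transcripts of more than 1 gene, and _a_at one whose probes match several transcripts of a gene. Both PIP2 calls rest on such probe sets, and with those types and the _x_at type left out 0 of 4 tested PIP2 probe sets was called by limma (at an unadjusted p under 0.05, PIP2-1 lower and pip2-5 higher). PIP2 genes are close relatives in sequence, and how far each probe set tells them apart was not tested.

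PIP2-1 was bright in both lines. On Zm.14436.1.A1_at it read 13.16 and 13.05 in Cm489 and 12.19 and 12.50 in F98908, with no overlap and a separation of 0.55. The difference of -0.76 ± 0.15 SE, a 1.69-fold lower level (95% interval 1.26 to 2.29), had an unadjusted p of 0.00863 and missed the threshold after adjustment (limma adjusted p = 0.0535). It passed in 4 of 14 alternative fits. These were the fits with arrays centred on their medians (0.0488), with quantile normalization (0.0496), with an intensity trend (0.0373) and with a crossed pairing of the arrays (0.0463). The crossed pairing was added after seeing the data. The call thus depends on small choices, while the difference stayed between -0.91 and -0.61. The second probe set assigned to PIP2-1, Zm.605.2.A1_at, lay at 1.58 or 1.59 on all 4 arrays, below the highest of 17 control tags with no target in the plant, at 2.29 to 2.33 per array. It was not tested. Its cluster number, 605, is that of the pip2b probe set, although the platform annotation gives PIP2-1.

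PIP2-4 differed more between the F98908 arrays than between the lines. Zm.15890.1.A1_at read 9.14 and 9.15 in Cm489, and 7.82 and 9.40 in F98908, so that one F98908 array lay below both Cm489 arrays and one above. The difference was -0.54 ± 0.58 SE (95% interval -2.18 to 1.11, adjusted p = 0.577). It became 0.25 without F98908 array 1 and -1.32 without F98908 array 2. The gap of 1.57 between the F98908 arrays was matched or exceeded by 51 of 11262 tested probe sets, although these arrays carry one extract label.

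The remaining PIP2 genes were dim. For pip2-5, a maize PIP2 known mainly from roots, Zm.600.1.S1_at read 3.89 and 3.92 in Cm489 and 4.61 and 5.58 in F98908. It entered the test only through its F98908 values, and its difference of 1.19 ± 0.36 SE did not pass (95% interval 0.15 to 2.22, unadjusted p = 0.0336, adjusted p = 0.120). PIP2-6, on Zm.607.1.A1_at, read 3.49 and 3.72 in Cm489 and 4.77 and 3.37 in F98908. Only 1 array exceeded log2 4, the groups overlapped, and PIP2-6 was not tested. In the RefSeq annotation PIP2-6 lies near PIP2-1 with 2 genes between them, neither with a named probe set here.

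**Figure D2:**
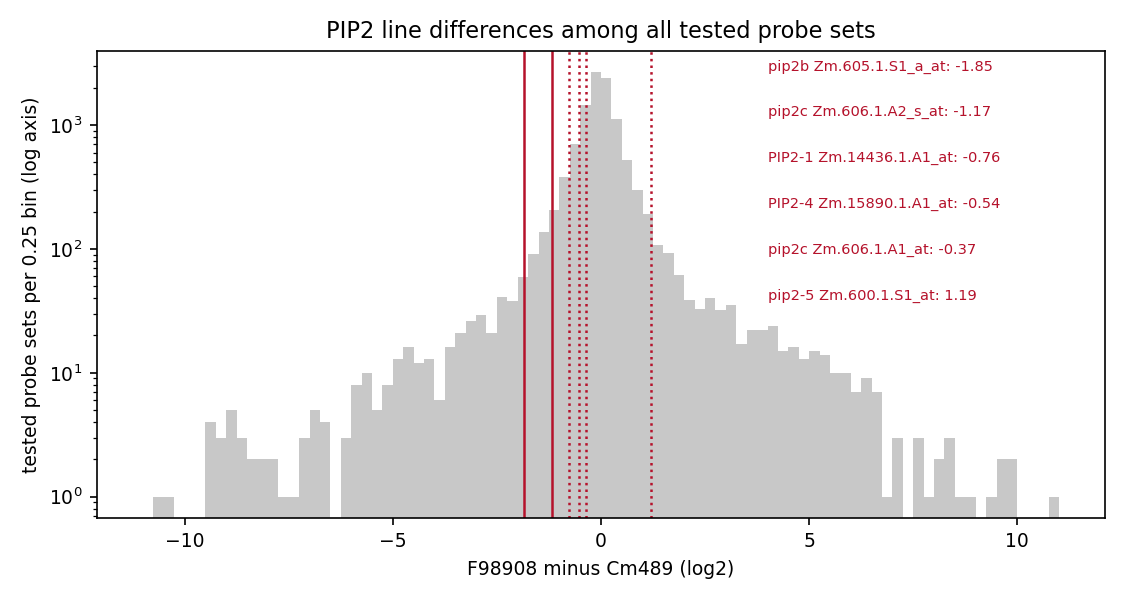
Histogram of the log2 difference, F98908 minus Cm489, over the 11262 tested probe sets (counts per 0.25 bin, log axis), with a red line for each tested PIP2 probe set, solid where called. The calls at -1.85 and -1.17 lie left of the bulk, and the other 4 lines lie between -0.76 and 1.19.

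The measured differences of the bright PIP2 probe sets were of unequal size. The gap of PIP2-1 over pip2b, taken within each array, was 2.49 and 2.64 in Cm489 and 3.68 and 3.62 in F98908, wider by 1.09 in F98908. The gap of pip2b relative to pip2c changed from -0.23 and -0.25 to -0.97 and -0.86, a change of -0.68. The gap of PIP2-1 over pip2c changed by 0.41, from 2.25 and 2.40 to 2.71 and 2.75. In these 3 pairs the arrays of the lines did not overlap. On these probe sets the measured decrease was therefore in the order pip2b, pip2c, PIP2-1 on each pairing of arrays. The dim pip2c probe set, not used here, differed by -0.37. The exact permutation p, two-sided, was 0.333 in each, the smallest that 2 arrays against 2 allow, and 0.500 after adjustment over the 6 pairs of bright PIP2 probe sets. This test could not pass in the design, so it does not settle whether the members differ; in these 3 pairs the change between lines exceeded the gap between the arrays of each line. The 3 pairs with PIP2-4 gave changes of -0.22, 1.31 and 0.63, with exact permutation p of 1, 0.333 and 0.667, and for each the F98908 arrays lay more than 1 unit apart. For PIP2-4 against pip2b the lines also did not overlap, at -1.54 and -1.25 in Cm489 and -0.68 and 0.52 in F98908. The change of 1.31 in that pair also exceeded the gap between the arrays of each line. A gap between probe sets depends on their probes, so only its change between lines is read. How far that change also depends on the probes or their brightness was not tested, so no order of the genes is drawn from it.

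Within F98908, array 1 was lower than array 2 on all 6 tested PIP2 probe sets, with a median of -0.36. Over all tested probe sets 50.5% were lower on that array, with a median of -0.00, and among 22 other tested aquaporin probe sets 13 were. Between the Cm489 arrays 3 of 6 PIP2 probe sets were higher on array 1, with a median gap of 0.05. PIP2-6, which was not tested, had the opposite order in F98908. The source of this gap was not tested.

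The partner group, PIP1, went in both directions. PIP1-3 (LOC541886, which the annotation also gives as PIP1-4) was higher in F98908 on 4 of its 5 probe sets, by 1.05 to 1.17 on the log2 scale (adjusted p = 0.0208 to 0.0306), and its remaining probe set was at 2.35 to 2.38 and not tested. On the brightest, Zm.16315.3.S1_a_at, PIP1-3 read 11.06 and 11.40 in Cm489 and 12.28 and 12.53 in F98908, a 2.26-fold higher level. These 4 probe sets are of the _a_at and _x_at types, share transcripts and count as 1 gene. With those types left out, PIP1-3 has no tested probe set. The gene pip1-2 was lower, at 13.57 and 13.69 in Cm489 and 13.03 and 13.11 in F98908 (difference -0.56 ± 0.11 SE, adjusted p = 0.0499), PIP1-1, the brightest of the group, was at 13.77 and 13.52 against 13.52 and 13.68 (-0.04 ± 0.14 SE, adjusted p = 0.872), and PIP1-5 differed by -0.97 (adjusted p = 0.166). By brightest probe set, 1 of 4 PIP1 genes was higher, 1 lower and 2 not called, beside 7.27% higher and 8.02% lower over all tested probe sets. Neither gene was called in any of the 4 fits without 1 array (PIP1-3, adjusted p = 0.0622 to 0.180 over its 4 probe sets; pip1-2, 0.0774 to 0.280), or with the F98908 arrays as 1 sample, and pip1-2 was called in 2 of 14 alternative fits.

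Relative to PIP1-3, the PIP1 gene that was higher, the 4 bright PIP2 probe sets read lower in F98908 than in Cm489, whereas pip2-5, with its difference of 1.19, did not. These pairs were chosen after their values were seen and are described without a test. The PIP1-3 probe set was itself higher by 1.17, and each gap change below includes that difference. The brighter PIP1 genes PIP1-1 and pip1-2 differed by -0.04 and -0.56, so the changes hold for PIP1-3 and not for the PIP1 group. The gap of PIP1-3 over pip2b within an array was 0.39 and 0.99 in Cm489 and 3.77 and 3.65 in F98908, a change of 3.02. The change was 2.34 against pip2c, 1.93 against PIP2-1 and 1.71 against PIP2-4. In each of the 4 pairs both F98908 gaps exceeded both Cm489 gaps. The 4 pairs share 1 PIP1-3 probe set, of the _a_at type. Its own values did not overlap between the lines, so the pairs are not separate results. Of all tested probe sets, 63.9% did not overlap between the lines.

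**Figure D3:**
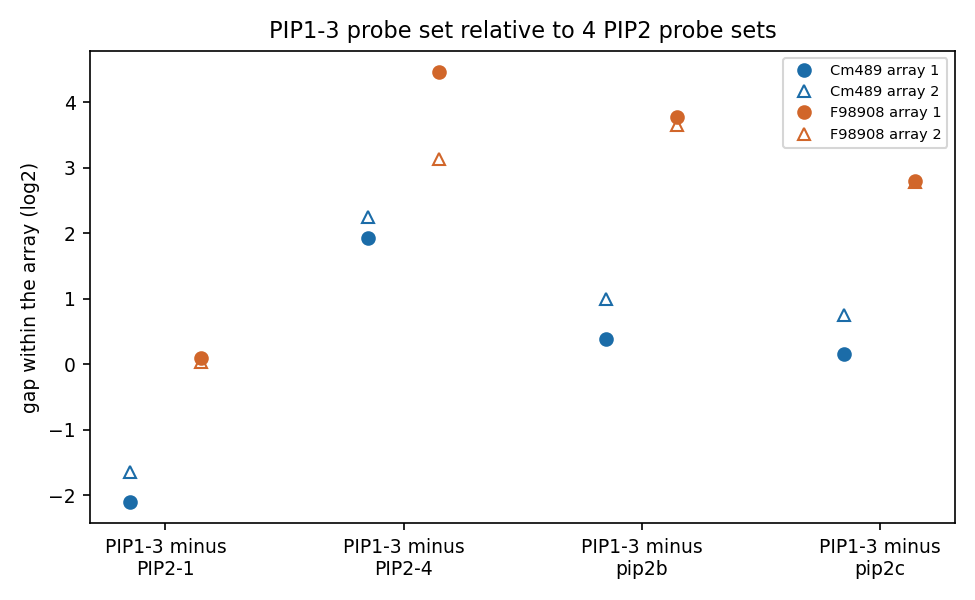
Log2 gap between the brightest PIP1-3 probe set and 4 PIP2 probe sets, with 1 symbol per array. For each pair both F98908 arrays lie above both Cm489 arrays, with mean changes of 1.93 for PIP2-1, 1.71 for PIP2-4, 3.02 for pip2b and 2.34 for pip2c. Each change includes the difference of 1.17 of the shared PIP1-3 probe set, which was chosen after its values were seen.

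The vacuolar membrane group, TIP, had 6 of 10 genes tested, with 1 higher, 0 lower by limma (3 lower at an unadjusted p under 0.05) and a median difference of -0.63. Over all tested probe sets 7.27% were called higher and 8.02% lower, and 18.1% were lower at an unadjusted p under 0.05. TIP1-2 read 2.5 on both Cm489 arrays and 6.0 and 5.15 in F98908, at least 2.97-fold higher against log2 4 (measured difference 3.07 ± 0.32 SE, adjusted p = 0.0140). It entered the test only through its F98908 values and was called in 2 of 4 fits without 1 array. TIP1-1, the brightest, had a difference of -0.33 (adjusted p = 0.108).

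The NIP and SIP groups, which include silicon transporters and channels of inner membranes, had 8 genes tested by brightest probe set, of which 1 was higher and 3 lower. NIP2-3 (Lsi6, a silicon transporter in cereals) was higher, with 6.58 and 6.67 in Cm489 against 9.06 and 8.85 in F98908 (5.03-fold, adjusted p = 0.00279), and it alone of the aquaporins called was called in all 14 alternative fits. NIP3-1 was 3.99-fold lower (adjusted p = 0.0393), SIP1-2 3.32-fold (adjusted p = 0.0134) and SIP2-1 1.60-fold (adjusted p = 0.0477). Without any one of the 4 arrays neither SIP gene was called, and NIP3-1 was called in 2 of those 4 fits. NIP1-1, the brightest of these by its mean over the 4 arrays but below SIP1-1 on all but Cm489 array 1, had a difference of -1.36 (adjusted p = 0.377), with 11.73 on Cm489 array 1 and 9.29 on array 2. Among the 22 tested probe sets of the other aquaporins, 10 were called, 4 of them for PIP1-3 alone, beside 15.3% over all tested probe sets. By brightest probe set these calls stand for 2 of 4 PIP1, 1 of 6 TIP and 4 of 8 NIP and SIP genes. The TIP call is that of TIP1-2, which entered the test only through its F98908 values. The fits without 1 array called 2 to 5 of the 22.

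**Figure D4:**
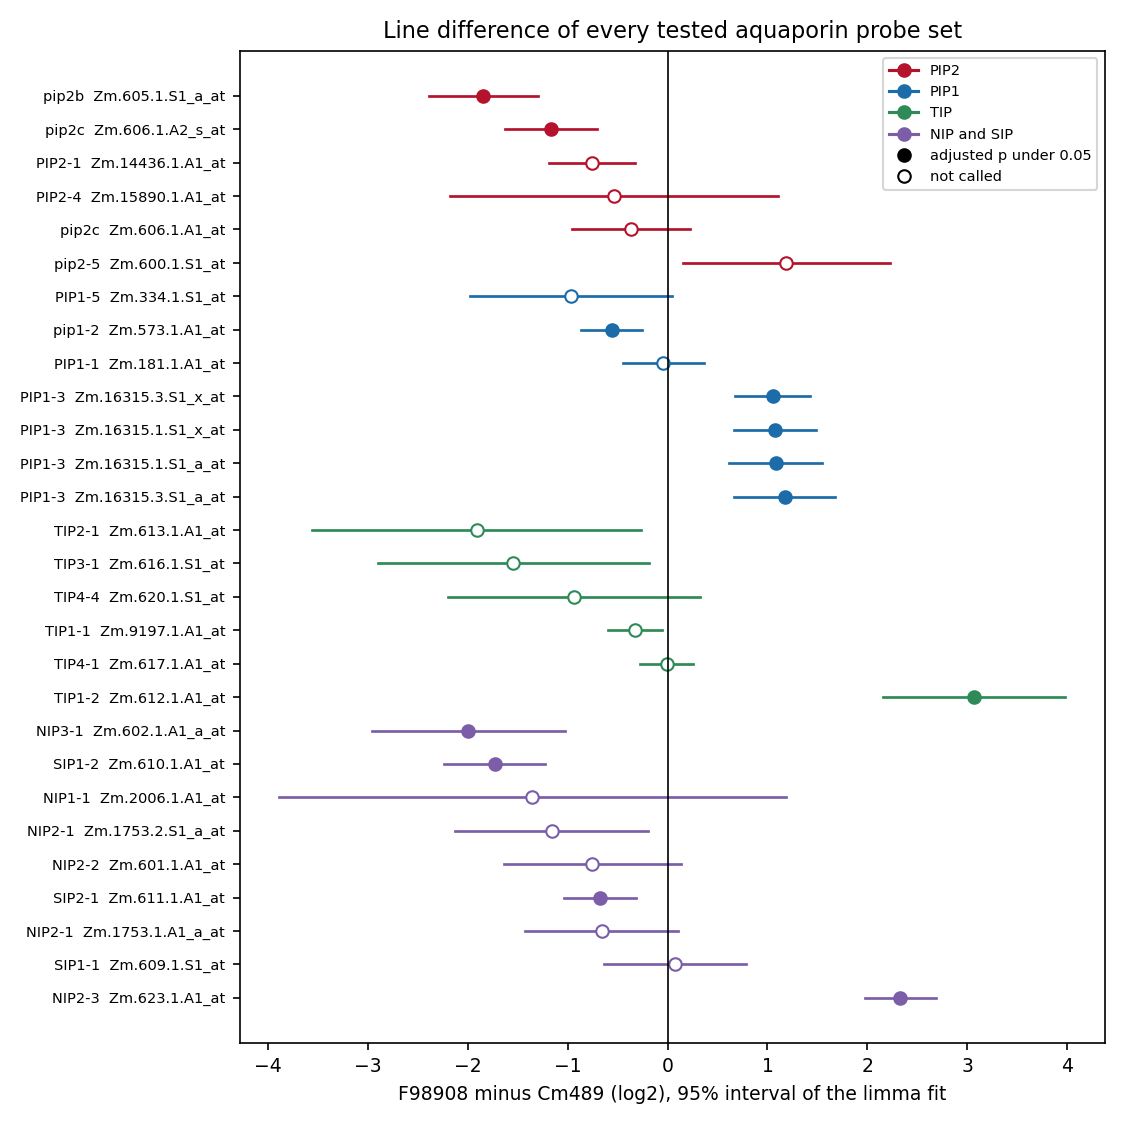
Log2 difference, F98908 minus Cm489, with its 95% interval from the limma fit, for each tested aquaporin probe set, grouped and coloured by family, filled where the adjusted p was under 0.05. In the PIP2 group 2 filled points lie left of 0, in PIP1 the 4 probe sets of PIP1-3 lie right of 0 and pip1-2 left, and NIP2-3 and TIP1-2 have the largest increases. TIP1-2 entered the test only through its F98908 values.

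Proton pumps, which set the voltage and pH gradient across the membranes that hold aquaporins, gave 1 call among 4 tested genes. Over all tested probe sets 15.3% were called, so this count is not read as a trait of the pumps. The plasma membrane pump gene mha4 was higher in F98908, at 9.67 and 9.80 in Cm489 and 10.55 and 10.51 in F98908 (difference 0.80 ± 0.10 SE, adjusted p = 0.0229). It was not called in any of the 4 fits without 1 array (adjusted p = 0.0572 to 0.183). The other plasma membrane pump gene, mha1, had a difference of 0.74 (adjusted p = 0.157), and the vacuolar pyrophosphatases vpp3, the brightest, and vpp1 had differences of -0.23 (adjusted p = 0.362) and -0.00 (adjusted p = 0.997).

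For each PIP2 gene with a tested probe set, the named genes with the nearest profile were ranked by Euclidean distance over the 4 arrays, after each probe set's mean was subtracted, among 716 candidate genes. With 4 arrays of 2 lines, such nearness mostly reflects the line difference. Nearest to pip2b were GAPC (distance 0.28), Snf-4 like (0.30) and acco20 (0.32), with line differences of -1.87, -1.65 and -1.84. Nearest to pip2c were gst9 (0.17), PPCK1 (0.20) and hcf106 (0.21), and nearest to PIP2-1 were PDK2 (0.05), gst11 (0.10) and tub6 (0.17). For PIP2-4 the nearest were ccr2 (0.46), MTK-1 (0.57) and pgr5 (0.64), and for pip2-5 HMT-1 (0.40), sdg118 (0.48) and sdg113 (0.48).

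Directions were kept more often than calls. Where the arrays of the lines did not overlap, leaving out 1 array could not change the sign. Several other alternatives left the difference itself unchanged, so the kept signs add no support. Over the alternative fits that could include each probe set, pip2b was lower in 13 of 13 and called in 6, the brighter pip2c probe set lower in 13 of 13 and called in 6, and PIP2-1 lower in 14 of 14. For pip2b and pip2c the 6 include the crossed pairing, which was added after seeing the data. PIP2-4 kept its sign in 13 of 14 and was called in 0 by limma. The spread between arrays of a line, over all tested probe sets, had a median of 0.207 in Cm489 and 0.131 in F98908.

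**Figure D5:**
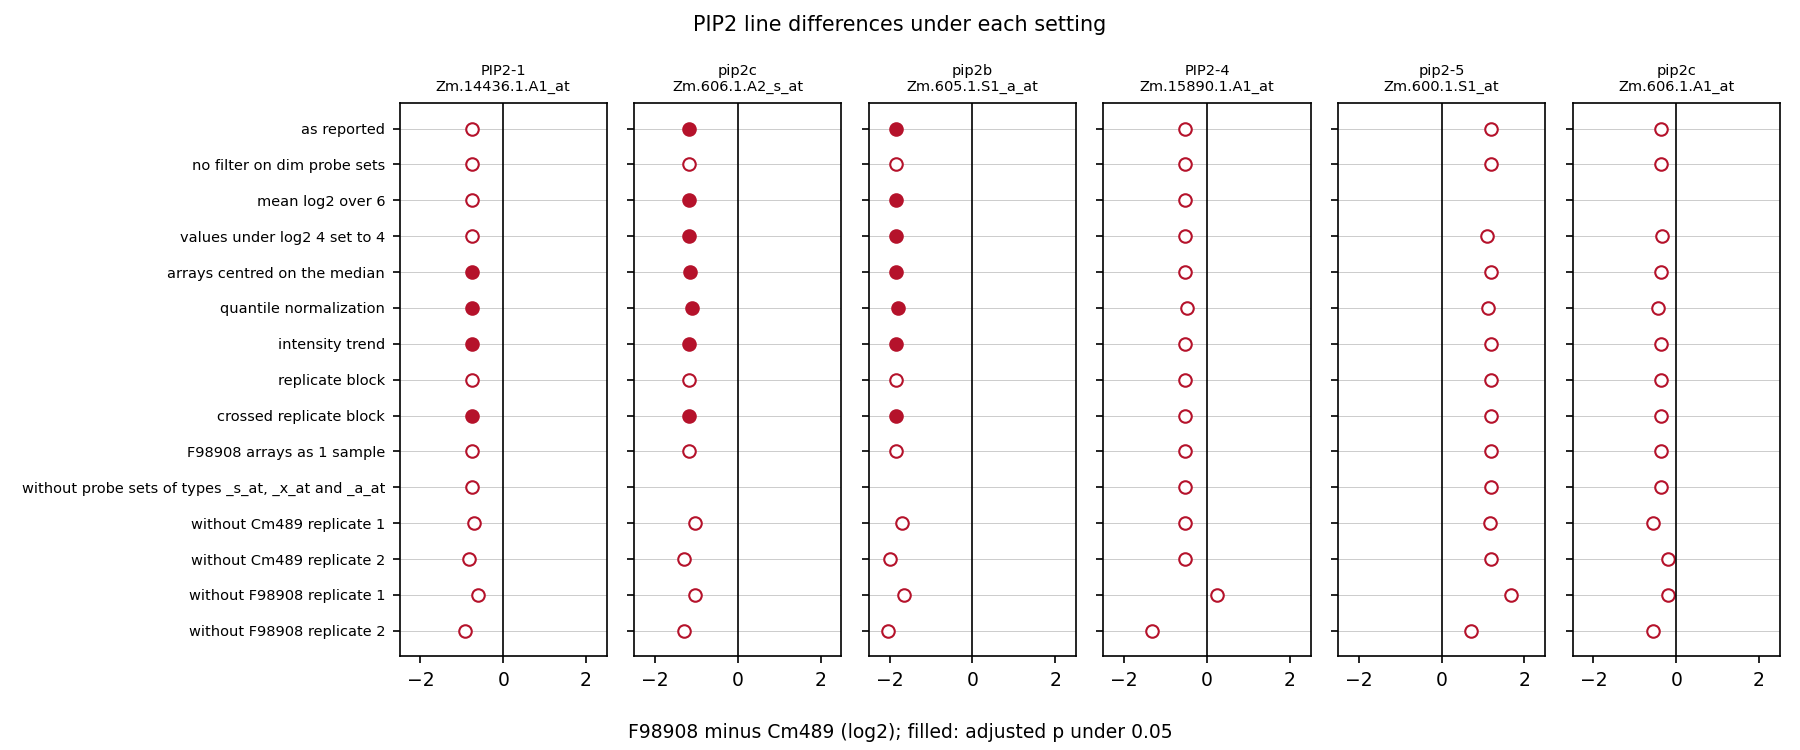
Log2 difference, F98908 minus Cm489, of the 6 tested PIP2 probe sets under each setting, filled where the adjusted p was under 0.05, with no point where a setting does not test the probe set. The values of pip2b, the brighter pip2c probe set and PIP2-1 stay left of 0 throughout, and only PIP2-4 crosses 0, at 0.25 without F98908 replicate 1.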

How the data were processed

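The deposited log2 values, 1 per probe set and array, come from GCRMA, per the submitters' processing notes, run by the authors in an unstated version. This method corrects background from probe sequence, brings arrays to one distribution and summarises probes, so a difference in total output between lines is removed. Neither scanner files nor detection calls were used. The 4 arrays had medians of 6.65 to 6.67, and 2 arrays per line limit the precision. Of 17734 probe sets, 179 control and reporter probe sets were left out. Symbols came from the platform's annotation, updated by gene number to RefSeq (Zm-B73-REFERENCE-NAM-5.0); 1452 maize probe sets have 1 symbol, 1 has several and 16102 are unnamed here. No build is named for the values, so no positions are given. Nor are sequences shown.

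Probe sets above log2 4 on at least 2 arrays (11262, 64.2%) were fitted with limma 3.58.1 in R 4.3.3 (F98908 minus Cm489, two-sided, Benjamini-Hochberg over all tested probe sets, threshold 0.05), and the fit was tested on simulated data. Intervals are at 95% from that fit, and values are log2 unless given as folds. The members and lists were chosen with earlier results of these data known. Named were all members, all called genes and the brightest of each other list, and the 3 nearest genes per member. Alternatives changed the filter, floor, scaling, variance model, pairing, F98908 as 1 sample, probe set types and the arrays left out.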

Additional observations from a re-analysis of the deposited data

How the results depend on the processing

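The counts given here are limma calls over all probe sets tested (819 higher, 903 lower), PIP2 calls (2 lower), calls among other aquaporins (10) and among proton pumps with genes matched by GRF symbols (1). In this section pumps stands for that combined list of proton pumps and GRF symbols, with 11 probe sets tested. The PIP2 count was 0 in every fit without 1 array (3 or 4 lower and 0 or 1 higher at an unadjusted p under 0.05), while all higher calls ran from 257 to 543, all lower from 176 to 536, other aquaporins from 2 to 5 and pumps were 0 (1 to 5 unadjusted). Such fits, and F98908 as 1 sample, take the spread from the other line's arrays alone, the lone array being assumed to vary alike. With F98908 as 1 sample the counts were 248, 170, 0, 2 and 0 (4 PIP2 lower, 1 higher and 2 pumps unadjusted). Without a filter PIP2 gave 0 (3 unadjusted; pip2b 0.0529, pip2c 0.0735) and other aquaporins 2, with 17555 probe sets tested; with a mean over log2 6, 505 were higher. Without the shared-probe types PIP2 gave 0 of 4 (1 lower and 1 higher unadjusted) and other aquaporins 4 of 15.

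The replicate number as a block gave 409 higher, 371 lower, 0 PIP2 calls (3 lower and 1 higher unadjusted; pip2b 0.0511, pip2c 0.0930), 3 other aquaporins and 0 pumps (1 unadjusted). Deviations of same-numbered arrays correlated at -0.36 over 11262 probe sets. This 1 correlation cannot show whether the numbers pair the arrays, so the block fit is not set aside. The crossed pairing, added after seeing the data, gave 885 higher, 968 lower, 3 PIP2, 8 other aquaporin and 2 pump calls. PIP2-4 turned from -0.54 to 0.25 without F98908 replicate 1; its differences without 1 array ran from -1.32 to 0.25. Of 80 single PIP2 differences under alternatives, 61 kept sign and side of the threshold, 14 lost the call and 4 gained it, in all 18 with the same sign. With the proton pump genes alone, without the GRF symbols, the main count is also 1.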

Other observations

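TIP2-2, a vacuolar membrane aquaporin outside the test, read 1.67, 1.68 and 1.70 on 3 arrays and 6.25 on F98908 array 2. TIP2-1 read 11.34 and 10.84 in Cm489 and 8.43 and 9.93 in F98908 (difference -1.91, limma adjusted p = 0.118), with the same order of the F98908 arrays as PIP2-4.

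The GRF symbols in the proton pump list are also used for growth-regulating transcription factors, and which these genes are was not settled here. Of 7 tested, limma called 0 (1 at an unadjusted p under 0.05, GRF5 at -0.57), beside 15.3% over all tested probe sets. GRF2, the brightest, differed by 0.05 (limma adjusted p = 0.960). The symbol sip1 (LOC542299) matched the SIP pattern by name alone and was dim on both its probe sets, with no value above 3.28.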
